A study of Mus musculus with 8 samples.

Results

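Every matrix metalloproteinase (MMP), ADAMTS protease and tissue inhibitor of metalloproteinases (TIMP) gene listed for 8 subcutaneous B16F10 melanomas was followed here from cell class to cell class and between 2 host genotypes. The genes were taken by their symbols, and the families were chosen with earlier results of these data known. Of the 31053 genes listed for each tumour, 45 carried a symbol of these families, 22 of them MMP, 19 ADAMTS and 4 TIMP genes. B16F10 is a mouse melanoma cell line, and its cells were wild type for Atf4 in every tumour. The 4 Atf4wt/wt hosts (2 male, 2 female) and the 4 Atf4D/D hosts (3 male, 1 female) were labelled as 12 weeks old, their tumours as large (300 mm3), and all 8 carried Rosa26::CreERT2 and received tamoxifen, so that Cre was active in the controls too. Rosa26 drives the recombinase in all tissues, so that the deletion was aimed at fibroblasts, macrophages, endothelium and the other host cells and not at the injected melanoma cells, and Atf4 transcripts in the host cells were fewer but not absent. Each tumour gave 1 droplet library of single cells, in which a unique molecular identifier (UMI) stands for 1 captured transcript end.

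MMPs are zinc-dependent endopeptidases that are made as inactive proenzymes, most of them secreted and some held at the cell surface, and that together cleave the collagens, elastin and glycoproteins of the extracellular matrix. ADAMTS proteases are secreted relatives with thrombospondin repeats that trim procollagens or cut proteoglycans such as versican and aggrecan. TIMPs bind active MMPs and close them, and one of them, Timp3, sits in the matrix and also blocks several ADAMTS enzymes. In tumours these genes are best known from cancer-associated fibroblasts (CAFs) and tumour-associated macrophages (TAMs), whose names are given to cell classes below.

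The 41925 barcodes left 28411 cells after filters on genes and mitochondrial reads, 14767 from Atf4wt/wt and 13644 from Atf4D/D hosts, at 37283598 to 74942137 UMIs per tumour and a median of 7848 to 11054.5 UMIs per cell. Cells were clustered without the 45 genes, so that none of them defined a class, and classes were named by markers: 23697 melanoma-like, 732 CAF-like, 458 TAM-like, 99 T/NK-like, 85 dendritic-like and 36 endothelial-like cells, with 256 immune and 2808 other cells left unnamed and 240 cells of a mitochondrial cluster removed, 230 of them from Atf4wt/wt replicate 4. Between libraries, 96 of 28315 barcodes recurred (0.339%), with at most 9 shared by any pair. Levels are given as CPM, the UMIs of a gene per 1000000 UMIs of the pooled cells. Atf4 itself followed the labels in host cells: it was at 278 to 323 CPM in CAF-like cells of Atf4wt/wt tumours and at 95.2 to 171 in Atf4D/D tumours, and at 148 to 419 against 60.3 to 119 CPM in TAM-like cells, whereas the ranges overlapped in melanoma-like cells (262 to 409.6 and 311 to 442). CAF-like cells held all 12 CAF markers in summed levels of 24686 to 48552 CPM, and they also held melanoma markers at 955 to 4774 CPM, against 13321 to 16523 in melanoma-like cells. TAM-like cells held melanoma markers too, at 941 to 7613 CPM, highest in Atf4wt/wt replicate 1. Pericyte markers in CAF-like cells summed to 4387 CPM in Atf4wt/wt replicate 2 and 3527 in Atf4D/D replicate 3 and to 146 to 1790 in the other tumours. The CAF-like cells of Atf4D/D replicate 3 numbered only 10, with 40826 UMIs, and stand apart in several results below.

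A level below is the CPM of a gene over all cells of a class in 1 tumour, and the 4 values of a genotype are given by replicate number. Of the 45 genes, 4 had no UMI in any kept cell (Adamts18, Mmp1b, Mmp20 and Mmp7) and 8 had from 1 to 9 (Adamts3, Adamts8, Adamts16, Adamts19, Mmp16, Mmp21, Mmp24 and Mmp28). A count of 0 in the melanoma-like sums, the largest, allows a level of up to 0.0117 CPM, and in the CAF-like sums 0.773 CPM. These limits take 3 counts as the most that a count of 0 allows, and they cover counting error only. The other 33 genes, 25 of them with 100 UMIs or more, are described below.

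Of the MMP genes, 9 lie side by side on chromosome 9 within 427 kb (GRCm38, chr9:7272514-7699585), in the order Mmp13, Mmp12, Mmp1b, Mmp3, Mmp10, Mmp8, Mmp27, Mmp20 and Mmp7. The expressed neighbours differed in cell class, and the 250 bases before their transcription starts are shown for that reason. Promoters of 31 of the 45 genes were found in the RefSeq table (GRCm38.p6), the 9 neighbours included, and all of those shown lie on the plus strand, printed 5′ to 3′ and ending at the base before the start. Capitals mark matches to a site of the AP-1 family (TGANTCA), the TATA box (TATAAA) and the composite C/EBP-ATF element (TGATGNAA), searched on both strands.
Mmp13, chr9:7272264-7272513: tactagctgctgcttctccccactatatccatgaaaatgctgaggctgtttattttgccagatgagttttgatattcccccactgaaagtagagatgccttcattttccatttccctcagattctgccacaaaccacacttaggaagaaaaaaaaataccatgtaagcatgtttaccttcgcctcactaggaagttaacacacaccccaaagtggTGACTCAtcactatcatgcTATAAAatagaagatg
Mmp12, first start, chr9:7344147-7344396: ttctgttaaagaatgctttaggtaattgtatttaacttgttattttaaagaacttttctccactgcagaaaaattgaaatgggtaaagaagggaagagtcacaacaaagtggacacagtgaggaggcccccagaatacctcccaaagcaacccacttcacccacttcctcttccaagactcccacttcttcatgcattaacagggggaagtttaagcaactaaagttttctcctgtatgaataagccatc
Mmp12, second start, chr9:7347124-7347373: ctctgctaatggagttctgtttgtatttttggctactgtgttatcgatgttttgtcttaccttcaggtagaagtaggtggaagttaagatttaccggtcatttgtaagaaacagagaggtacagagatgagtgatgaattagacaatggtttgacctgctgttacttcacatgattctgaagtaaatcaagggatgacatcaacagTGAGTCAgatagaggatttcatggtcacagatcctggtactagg
Mmp3, chr9:7445572-7445821: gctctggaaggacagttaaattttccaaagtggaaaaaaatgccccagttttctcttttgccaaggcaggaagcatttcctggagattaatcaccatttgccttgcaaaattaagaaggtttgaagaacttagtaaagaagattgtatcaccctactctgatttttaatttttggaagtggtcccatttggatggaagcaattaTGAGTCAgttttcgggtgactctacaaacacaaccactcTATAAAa
Mmp10, chr9:7502092-7502341: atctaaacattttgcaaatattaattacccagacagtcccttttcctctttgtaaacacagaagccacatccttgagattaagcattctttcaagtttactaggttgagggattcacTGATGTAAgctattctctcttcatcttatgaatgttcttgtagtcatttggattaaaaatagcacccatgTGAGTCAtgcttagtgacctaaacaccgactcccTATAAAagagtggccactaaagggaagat
Mmp8, chr9:7558179-7558428: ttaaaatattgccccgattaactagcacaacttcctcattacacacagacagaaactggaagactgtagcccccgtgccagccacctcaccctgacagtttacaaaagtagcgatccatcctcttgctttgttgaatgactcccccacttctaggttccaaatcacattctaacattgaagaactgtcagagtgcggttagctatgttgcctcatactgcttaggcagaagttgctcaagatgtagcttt
Mmp27, chr9:7571146-7571395: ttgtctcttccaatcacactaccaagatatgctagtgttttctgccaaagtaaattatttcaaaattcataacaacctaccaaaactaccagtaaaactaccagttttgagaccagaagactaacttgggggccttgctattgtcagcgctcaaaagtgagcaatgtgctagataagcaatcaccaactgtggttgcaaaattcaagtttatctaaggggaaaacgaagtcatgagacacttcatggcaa

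An AP-1 site was present in 7 of the 9 neighbours (Mmp13, the second start of Mmp12, Mmp1b, Mmp3, Mmp10, Mmp20 and Mmp7) and in 6.75% of all 32851 promoters of the table over the same length. Its first base lay 35 bases before the start in Mmp13, 44 in Mmp12, 46 in Mmp3 and 63 in Mmp10. A TATA box was found in 6 of the 9 (Mmp13, Mmp1b, Mmp3, Mmp10, Mmp20 and Mmp7) and in 12.37% of all promoters, and outside the cluster only Adamts1 and Mmp21 of the 31 genes had one. The TATA letters began 16 bases before the annotated start in Mmp13, 7 in Mmp3 and 29 in Mmp10. The C/EBP-ATF element, the kind of site that ATF4 heterodimers are known to read, was found only in Mmp10 among the 31 genes, 133 bases before its start, and in 3.45% of all promoters. Mmp8 and Mmp27 had none of these letters in the window. A match is a description of the letters and not a measured site, and Mmp1b, Mmp20 and Mmp7, which carry the same letters, had no UMI.

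Most of the 33 genes with 10 UMIs or more were highest in CAF-like cells. Comparing the 3 classes with all tumours pooled, 23 genes were highest in CAF-like cells (12 ADAMTS, 9 MMP and 2 TIMP genes), 7 in TAM-like cells (6 MMP genes and Timp2) and 3 in melanoma-like cells (Adamts13, Adamts20 and Timp4). Some of these places rest on very few counts. Mmp17 and Mmp25 were placed in TAM-like cells by 1 and 2 cells with a UMI, and Mmp15 and Adamts17 in CAF-like cells by 2 and 4 UMIs. How all listed genes divide over the 3 classes was not counted. UMIs were summed over each class of each tumour, and classes were tested against each other by the quasi-likelihood method of edgeR with the tumour as a block and p-values adjusted by Benjamini-Hochberg over all genes tested. Since a class holds cells grouped by their other genes, these tests describe where a gene sits.

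**Figure D1:**
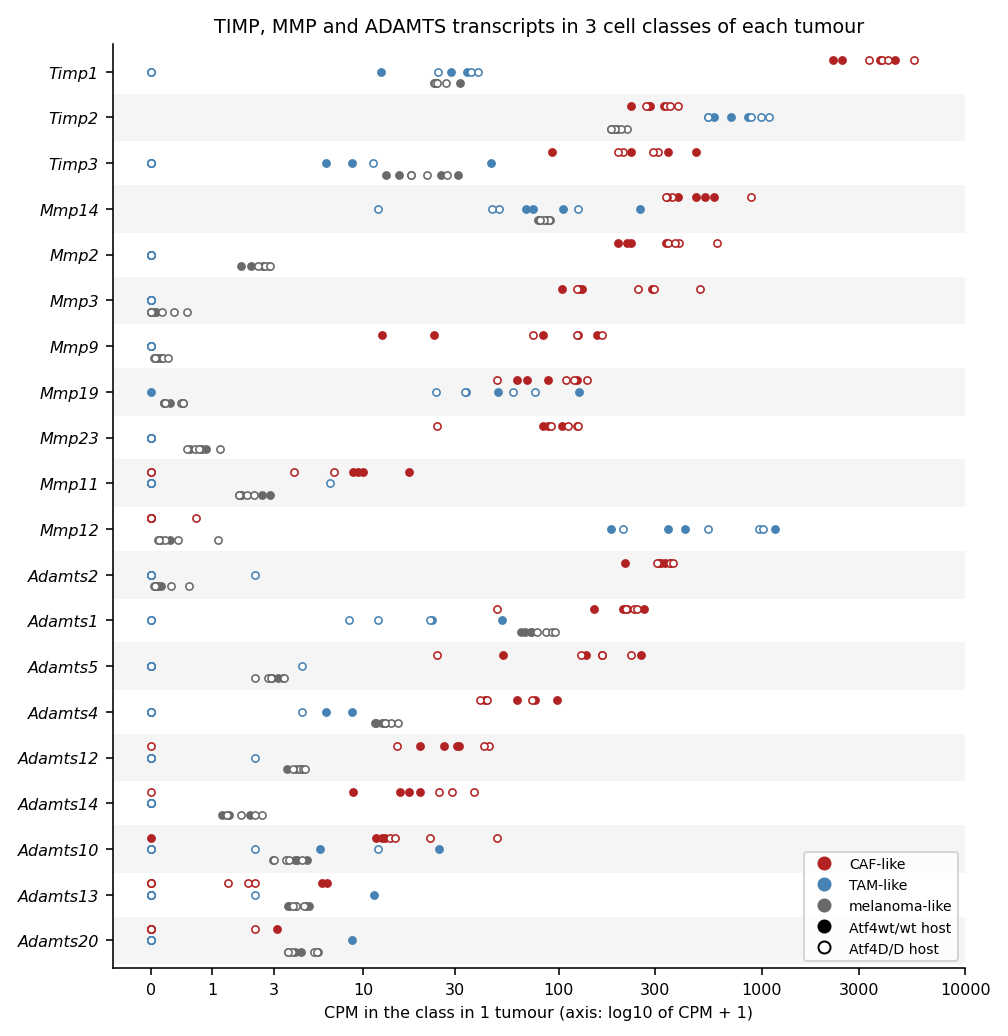
Levels of the members with at least 100 UMIs in 1 of the 3 classes, as CPM of the class in 1 tumour on a log axis of CPM + 1, with filled points for Atf4wt/wt and open points for Atf4D/D hosts. In the top row the CAF-like points of Timp1 sit between 2242 and 5619 CPM, apart from all TAM-like and melanoma-like points, whereas Mmp12 appears almost only in TAM-like points.

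Between CAF-like and melanoma-like cells, 19 of 21 members tested were higher in CAF-like cells and 1 was lower, against a background of 27.1% of 11777 genes called higher and 25.7% called lower. The median difference of the 21 members was 3.92 on the log2 scale, beside -0.05 over all genes tested. The differences called ranged from 0.90 ± 0.10 (SE) for Timp2 to 11.17 ± 0.22 for Adamts2 (edgeR quasi-likelihood test, adjusted p = 4.49e-09 and 5.23e-27). Adamts20 was the gene that was lower in CAF-like cells (-2.90 ± 0.75, adjusted p = 0.00162), and Adamts13 did not pass (-0.62 ± 0.48, adjusted p = 0.285). Without the CAF-like and TAM-like cells that carried many melanoma marker UMIs, Adamts13 was also called lower in CAF-like cells (-1.86, adjusted p = 0.0212). Between CAF-like and TAM-like cells, where 27.8% of 3054 genes were called higher and 19.7% lower, 8 of 10 members tested were higher in CAF-like cells and 2, Mmp12 and Timp2, were lower. In each class comparison the filter on low levels could admit a gene by its counts in 1 class alone. Mmp2 and Mmp3, with 0 UMIs in TAM-like cells, entered through the CAF-like sums, which held 3881180 UMIs against 1269340. The counts and medians of members thus depend in part on this filter, through which all other genes passed too. Between TAM-like and melanoma-like cells, where 16.1% of 11473 genes were called higher and 23% lower, 2 of 15 members were higher in TAM-like cells (Mmp12 and Timp2) and 3 lower (Adamts1, Adamts4 and Mmp2). The call of Mmp2 in that last comparison rests on 0 UMIs in TAM-like cells and was lost without each of the 8 tumours in turn. Timp1 and Mmp14 differed between TAM-like and melanoma-like cells by 0.00 ± 0.31 and -0.07 ± 0.21, and neither passed (adjusted p = 0.996 and 0.83). Melanoma marker UMIs in TAM-like cells limit this comparison, and what part of the TAM-like levels came with them was not tested. Without the 57 of 458 TAM-like cells that carried many, 7 members were called in place of 5. Adamts5, Adamts20 and Timp3 were gained and Mmp2 was lost. In this comparison the p-values of Timp2 and Adamts1 equal those of a normal distribution, as if the spread between tumours were known exactly. That of Mmp12 was too small to print. These p-values, and the shares of all genes called here, overstate the certainty that 8 tumours can give.

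The inhibitors divided between the host classes. Timp1 was at 3828, 2242, 4506 and 2471 CPM in CAF-like cells of the Atf4wt/wt tumours and at 5619, 3901, 3380.2 and 4174 in those of the Atf4D/D tumours. All 8 values exceeded the highest in any other of the 3 classes, since Timp1 lay at 23.7 to 32.1 CPM in melanoma-like and 0 to 39.5 in TAM-like cells. It was higher in CAF-like than in melanoma-like cells by 7.34 ± 0.15 (adjusted p = 4.08e-26) and than in TAM-like cells by 7.38 ± 0.24 (log2, adjusted p = 9.03e-16). Among CAF-like cells, 90.3% held a Timp1 UMI at a median of 4585 UMIs per cell, and 22.7% of melanoma-like cells did at a median of 10309. With every cell thinned to 1000 UMIs the shares were 76.2% and 2.41%.

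Timp2, an inhibitor that also takes part in the activation of pro-Mmp2 by Mmp14, had its highest levels in TAM-like cells. They were 580.3, 545, 861 and 704 CPM in the Atf4wt/wt and 891, 1085, 989 and 547 in the Atf4D/D tumours. CAF-like cells lay at 229 to 389 CPM and melanoma-like cells at 181 to 217, so that the 3 classes did not overlap. TAM-like cells were above melanoma-like cells by 1.99 ± 0.15 (log2, adjusted p = 2.14e-40, which overstates the certainty as described above). CAF-like cells were below TAM-like cells by -1.20 ± 0.15 (adjusted p = 6.62e-07). Timp3, the matrix-bound inhibitor, was at 92.3 to 476 CPM in CAF-like, 13.2 to 31.2 in melanoma-like and 0 to 46.0 in TAM-like cells, and was called higher in CAF-like cells in both comparisons (3.90 ± 0.18 and 4.77 ± 0.30, adjusted p = 9.56e-18 and 4.10e-11). Timp4 had 37 UMIs in melanoma-like cells and 0 in the CAF-like and TAM-like cells.

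The gelatinases Mmp2 and Mmp9, which cut denatured collagen and the type IV collagen of basement membranes, were highest in CAF-like cells. Mmp2 was at 339.7, 229, 217 and 195 CPM there in Atf4wt/wt and at 347, 605, 392 and 375 in Atf4D/D tumours, and every Atf4D/D value lay above every Atf4wt/wt value. Melanoma-like cells had 1.76 to 2.86 CPM (636 UMIs in 609 cells), and TAM-like cells had 0 UMIs, so that the pooled CAF-like level was at least 151-fold that of the TAM-like cells (floor of 3 counts over all tumours). Mmp9 was at 23.6, 154, 83.3 and 12.6 CPM in CAF-like cells of Atf4wt/wt and 125, 74.3, 122 and 163 of Atf4D/D tumours, with 2 low values among the Atf4wt/wt tumours and overlap between the genotypes. TAM-like cells had no Mmp9 UMI either, at least 48.3-fold below the CAF-like level. Both genes were called higher in CAF-like than in melanoma-like cells (7.27 ± 0.15 and 9.87 ± 0.30, adjusted p = 3.37e-26 and 3.66e-22).

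Traces of CAF transcripts in melanoma-like cells set a limit to such comparisons. Col1a1 and Col3a1, the main fibrillar collagen genes of fibroblasts, were in melanoma-like cells at 0.0091 to 0.171% of the CAF-like level of the same tumour. The pooled melanoma-like levels of Mmp3, Mmp9, Mmp10, Adamts2 and Adamts15 lay at or below 0.171% of the CAF-like level, the highest collagen value of a single tumour. With all tumours pooled, Col1a1 and Col3a1 lay lower, at 0.0423% and 0.0526%. Adamts2 (0.0453%) and Mmp3 (0.0455%) fell between these 2, and Mmp9 (0.0852%), Adamts15 (0.0943%) and Mmp10 (0.155%) above them. The pooled levels of Timp1 (0.607%), Mmp2 (0.692%), Mmp14 (21.5%), Adamts4 (25.2%) and Adamts1 (34.6%) lay above 0.171%. What part of these came from free RNA was not tested.

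The chromosome 9 neighbours split by class. The stromelysins Mmp3 and Mmp10, whose start sites lie 56.5 kb apart, were found in CAF-like cells, and Mmp12 on their left and Mmp8 and Mmp27 on their right in myeloid cells. Mmp3 was at 289, 127, 130.0 and 104 CPM in CAF-like cells of Atf4wt/wt and 498, 295, 122 and 247 of Atf4D/D tumours, with Atf4wt/wt replicate 1 high and Atf4D/D replicate 3 low within their genotypes. TAM-like cells had 0 UMIs of Mmp3, at least 116-fold below the pooled CAF-like level. Mmp10 had 39 UMIs in 20 CAF-like cells, 4 in melanoma-like and 1 in TAM-like cells, and was called higher in CAF-like than in melanoma-like cells (9.05 ± 0.58, adjusted p = 5.19e-14).

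Mmp12, the macrophage elastase, was at 1161, 419, 181 and 348 CPM in TAM-like cells of Atf4wt/wt and 967, 208, 543 and 1021 of Atf4D/D tumours. These values spread widely within each genotype, from 181 to 1161 and from 208 to 1021 CPM, and overlapped between genotypes. CAF-like cells had 1 Mmp12 UMI, and melanoma-like cells 0.0822 to 1.12 CPM, with Atf4D/D replicate 4 the highest. TAM-like cells exceeded melanoma-like cells by 11.14 ± 0.24 and CAF-like cells lay below TAM-like cells by -10.19 ± 0.29 (log2, adjusted p = 2.18e-16). Of the TAM-like cells 22.1% held a Mmp12 UMI, 9.68 to 40% by tumour, and 10 cells held 40.7% of its UMIs in the class.

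The 3 other expressed neighbours were sparse. Mmp13, a fibrillar collagenase, had 82 UMIs in CAF-like cells, but these came from 3 cells: 72 UMIs from 2 cells of Atf4wt/wt replicate 1 and 10 from 1 cell of Atf4D/D replicate 4, and 57 of them lay in a single cell. TAM-like cells had 49 Mmp13 UMIs in 29 cells of 7 tumours. Mmp8, the collagenase of neutrophils, had 16 UMIs in TAM-like cells and 14 in the 256 unnamed immune cells. Mmp27 had 31 UMIs in TAM-like and 14 in CAF-like cells.

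**Figure D2:**
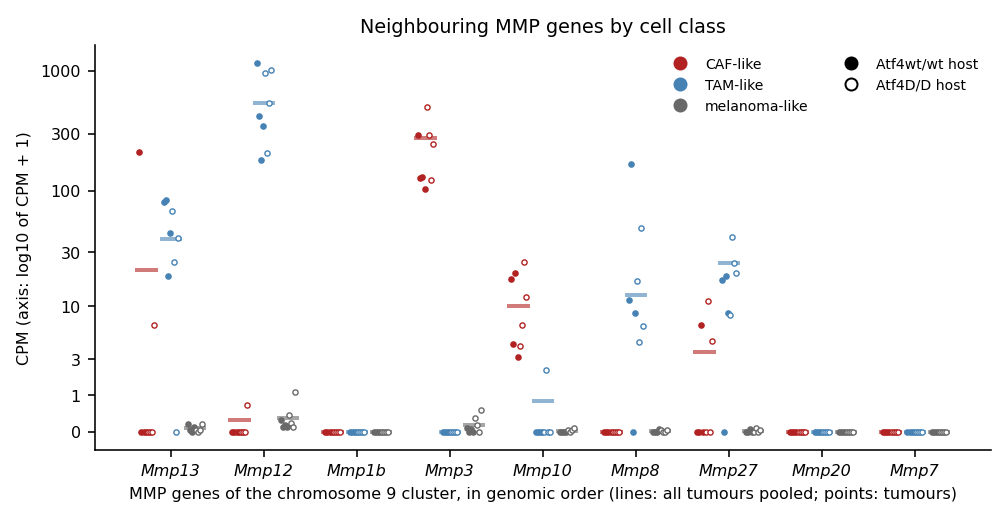
The 9 MMP genes of the chromosome 9 cluster in genomic order, with CPM by class on a log axis of CPM + 1, lines for all tumours pooled and points for single tumours. Mmp3 and Mmp10 show CAF-like levels between Mmp12 on one side and Mmp8 and Mmp27 on the other, whose levels are TAM-like, and Mmp13 shows both, with a single CAF-like tumour at 213 CPM.

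The membrane-type and remaining secreted MMPs had other patterns. Mmp14, a cell-surface collagenase that activates pro-Mmp2, was found in all 3 classes: at 387, 580.2, 473 and 526 CPM in CAF-like cells of Atf4wt/wt and 362, 342, 882 and 337 of Atf4D/D tumours, at 78.7 to 90.7 in melanoma-like and at 12.1 to 251 in TAM-like cells. The CAF-like values exceeded all the others, and that of Atf4D/D replicate 3 stood apart. Mmp14 was higher in CAF-like than in melanoma-like cells by 2.57 ± 0.10 (adjusted p = 3.66e-19) and than in TAM-like cells by 2.50 ± 0.25 (adjusted p = 4.10e-08). Of the other membrane-type genes, Mmp15 had 94 UMIs in melanoma-like cells, Mmp17 68, Mmp25 11 over the 3 classes, and Mmp16 and Mmp24 fell under 10 in all.

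Mmp19 was shared by CAF-like (49.0 to 137 CPM) and TAM-like cells (0 to 126) and lay at 0.163 to 0.439 CPM in melanoma-like cells. CAF-like cells were above TAM-like cells by 1.33 ± 0.27 (adjusted p = 3.66e-04). Mmp23 was at 24.5 to 124 CPM in CAF-like cells, lowest in Atf4D/D replicate 3, with 0 UMIs in TAM-like cells, at least 42.7-fold lower. Mmp11, which furin activates inside the cell, had 24 UMIs in CAF-like cells and was called higher there than in melanoma-like cells, at 1.72 to 2.83 CPM, by 1.96 ± 0.42 (adjusted p = 2.19e-04).

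Of the procollagen N-proteinases, which remove the amino-terminal propeptides of fibrillar collagens, Adamts2 was at 319, 312, 213 and 334 CPM in CAF-like cells of Atf4wt/wt and 352, 353, 367 and 306 of Atf4D/D tumours. Atf4wt/wt replicate 3 was the lowest of these levels, at 213 CPM beside 306 to 367 in the other tumours, and the genotypes overlapped. Adamts14 lay at 1.24 to 2.53 CPM in melanoma-like cells and spread from 0 to 37.5 over the CAF-like tumours, and was called higher in CAF-like cells (3.92 ± 0.31, adjusted p = 4.92e-12). Adamts3 had 1 UMI in all kept cells. Adamts2 and Adamts14 had 1 and 0 UMIs in TAM-like cells.

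The proteoglycanases, which cut versican, aggrecan and related proteoglycans, were found in more than 1 class. Adamts1 was at 207, 149, 217 and 265 CPM in CAF-like cells of Atf4wt/wt and 214, 234, 49.0 and 243 of Atf4D/D tumours, where replicate 3 was far below the rest. In melanoma-like cells it was at 64.9, 72.9, 72.3 and 67.9 and 85.9, 92.4, 77.9 and 95.4 CPM, and here all Atf4D/D values lay above all Atf4wt/wt values. It was higher in CAF-like than in melanoma-like cells by 1.63 ± 0.12 (adjusted p = 6.31e-13) and lower in TAM-like than in melanoma-like cells by -2.20 ± 0.30 (adjusted p = 4.27e-12). Adamts4 had the same order of classes, with 4 UMIs in TAM-like cells, 11.6 to 15.4 CPM in melanoma-like and 40.5 to 97.5 in CAF-like cells. Adamts5 was at 2.25 to 3.51 CPM in melanoma-like cells and rose to 24.5 to 255 in the CAF-like class (5.91 ± 0.20, adjusted p = 5.54e-21), and it had 2 UMIs in TAM-like cells. Adamts15 and Adamts9 had 96 and 47 UMIs in CAF-like cells and 0 in TAM-like cells.

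Among the 3 larger classes, Adamts20 and Adamts13 had their highest pooled levels in melanoma-like cells. Pooled Adamts13 was higher in the unnamed cells (7.81 CPM) and in dendritic-like cells (7.90 CPM, from 1 cell) than in melanoma-like cells (4.32 CPM). Adamts20, which melanoblasts need to colonize mouse skin, was at 3.71 to 5.65 CPM in melanoma-like cells of all 8 tumours and had 2 UMIs in CAF-like and 1 in TAM-like cells. Adamts13, which cleaves von Willebrand factor, was at 3.74 to 5.0 CPM in melanoma-like cells and had 9 UMIs in CAF-like cells. Of the ADAMTS genes that cut cartilage oligomeric matrix protein, Adamts12 was at 3.68 to 4.71 CPM in melanoma-like and 0 to 45.0 in CAF-like cells (2.97 ± 0.25, adjusted p = 3.11e-11), and Adamts7 had 35 and 28 UMIs in these classes. Adamts6 and Adamts10, which are tied to fibrillin microfibrils, were both called higher in CAF-like than in melanoma-like cells (5.17 ± 0.39 and 2.12 ± 0.33, adjusted p = 1.60e-12 and 2.80e-06). Adamts17 had 11 UMIs over the 3 classes.

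CAF-like cells fell into 5 subclusters, again found without the 45 genes, and the members differed between them. The subclusters are called here by their leading genes: 0 by Lrrc15 and Col27a1 (284 cells), 1 by Pgf, Egln3 and Ndrg1 (190), 2 by Cxcl13, Pi16 and Clec3b (116), 3 by the melanoma genes Pmel and Dct beside the CAF markers (78) and 4 by Myh11 and Rgs5 (64). Levels over all tumours pooled are compared without a test, because few tumours held 10 cells of each.

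Subcluster 1 held the highest pooled level of Timp1 (6893 CPM, 4868 to 8609 over 6 tumours), against 549.8 in subcluster 4 (153 to 670.2 over 3). Its tumours overlapped those of subcluster 0, which had 4864 CPM of Timp1 (3373 to 6668 over 7). Subcluster 1 was also highest in pooled Mmp9, at 337 CPM (33.5 to 526), beside 119 in subcluster 0 (13.6 to 316, overlapping) and 9.46 in subcluster 2. Mean Mmp9 in subclusters 1 and 0 was 95.3 and 110 CPM over Atf4wt/wt tumours and 334 and 139 over Atf4D/D tumours. Of the 39 Mmp10 UMIs, 32 lay in subcluster 1 and 7 in subcluster 0. Its level of Adamts1 was the lowest of the 5, at 80.2 CPM.

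Subcluster 2, led by genes of adventitial fibroblasts, stood out by other members. Adamts5 was at 747 CPM (509 to 865 over 5 tumours) against 142 in subcluster 0 and 10.0 in subcluster 1, and the tumours of subcluster 2 lay above all those of the other 4. Pooled levels in subcluster 2 were also the highest for Mmp2 (806 CPM), Mmp3 (699.9), Adamts1 (498), Mmp23 (218), Mmp19 (204), Adamts15 (117) and Timp2 (520.2). Over tumours, Mmp2 and Mmp3 in subcluster 2 (384 to 1206 and 264 to 909 CPM) overlapped those of subclusters 0 (202 to 742 and 65.3 to 267) and 1.

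Subcluster 4, led by genes of vascular mural cells, had low Mmp3, with 3 UMIs, and Adamts5, also with 3, but Adamts2 at 531 CPM and the highest pooled levels of Adamts4 (104), Adamts12 (90.1) and Adamts9 (47.4). The share of this subcluster among CAF-like cells was 41.2% in Atf4wt/wt replicate 2 and 30% (3 of 10 cells) in Atf4D/D replicate 3 and 1.03 to 17.1% in the other tumours. Subcluster 2 made up 3.92 to 21.1% of CAF-like cells in Atf4wt/wt and 0 to 21.4% in Atf4D/D tumours. Subcluster 1 made up 9.8 to 35.9% and 26.7 to 32.5%. The part of these shares in the levels of the whole class was not tested.

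**Figure D3:**
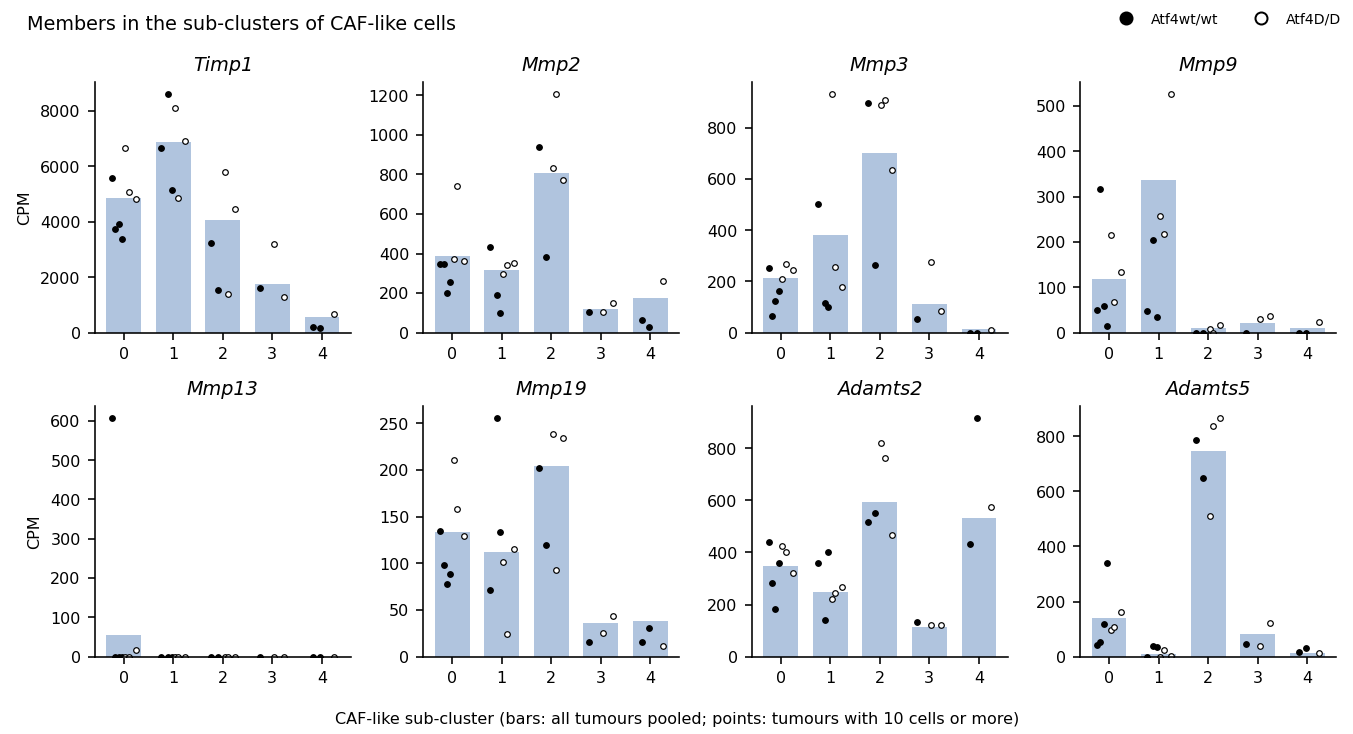
Pooled CPM (bars) and CPM in tumours with at least 10 cells of the subcluster (points, filled for Atf4wt/wt and open for Atf4D/D) of 8 members in the 5 CAF-like subclusters. The bars of Timp1 and Mmp9 peak in subcluster 1 (6893 and 337 CPM), with points that overlap those of subcluster 0. Those of Mmp2, Mmp3, Mmp19, Adamts2 and Adamts5 peak in subcluster 2, and the Mmp13 bar in subcluster 0 comes from 3 cells.

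Among myeloid cells, Mmp12 was highest in a TAM-like subcluster led by Arg1 and Cxcl2 (180 cells), at 1969 CPM pooled and 556 to 3315 over 7 tumours. The TAM-like subcluster led by Ccl12, Pf4 and the C1q genes (204 cells) had 209 CPM of Mmp12 (0 to 765, overlapping the former), but 1263 CPM of Timp2 (1038 to 1415), and the tumours' Timp2 values of the 2 subclusters did not overlap (97.1 to 946 CPM in the former). A TAM-like subcluster led by the C1q genes and Trem2 (74 cells) had 120.5 CPM of Mmp12 and 530.0 of Timp2. Both Mmp13 (31, 11 and 7 UMIs) and Mmp27 (4, 19 and 8 UMIs) were found in all 3 of these subclusters, given in the order above. The unnamed immune cells, led by Lyz2, Chil3 and Il1b, held Mmp19 (134 CPM) and Mmp8 (48.0), with neither Mmp13 nor Mmp27. Dendritic-like cells held 6 UMIs of Timp1 and 4 of Timp2 and T/NK-like cells 4 of Adamts14.

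The 36 endothelial-like cells, 16 of them from Atf4wt/wt replicate 1, had pooled levels of 457 CPM for Timp3, 428 for Adamts1, 390.3 for Mmp14, 152 for Adamts9, 114 for Adamts4 and 105 for Mmp15. These rest on 48, 45, 41, 16, 12 and 11 UMIs. For Timp3, Adamts1, Adamts9, Adamts4 and Mmp15 the pooled endothelial-like level was above the pooled level of the 3 larger classes, and no test was possible with 1 tumour of 10 cells or more.

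The melanoma-like cells formed 9 clusters with smaller differences. Adamts1 was at 134 CPM in cluster 0, led by Pgf, Car9, Ndrg1 and other genes that hypoxia is known to induce, and at 59.0 to 95.2 in the other 8. Over tumours, cluster 0 lay at 114 to 153 CPM and the highest tumour of any other cluster at 119. Timp2 was at 332 CPM (299 to 377) in cluster 12, with Lgals3 and Nes among its leading genes, against 147 to 219.9 in the others, whose highest tumour was at 254, and Adamts14 was also highest there (9.64 CPM). Timp3 was highest in cluster 2 (44.5 CPM), led by Akr1b7, Grb14 and Nupr1, with overlap between tumours. Adamts20 was at 7.37 and 7.49 CPM in clusters 5 and 6, led by genes of DNA replication, and at 2.04 in cluster 0.

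**Figure D4:**
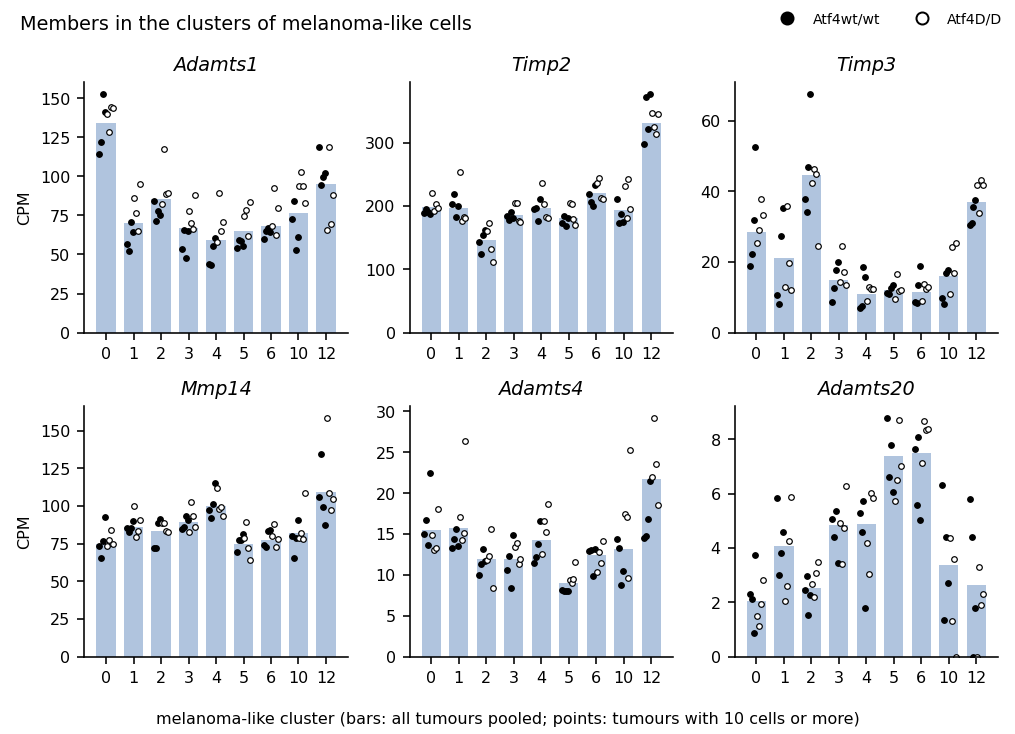
Pooled CPM (bars) and CPM per tumour (points, filled for Atf4wt/wt and open for Atf4D/D) of 6 members in the 9 clusters of melanoma-like cells, numbered as in the text. Adamts1 stands highest in cluster 0 (134 CPM), Timp2 in cluster 12 (332) and Timp3 in cluster 2 (44.5), while the Mmp14 bars lie between 75.0 and 109.

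The series was designed to compare host genotypes. In CAF-like cells, 0 of 14 members tested passed at an adjusted p of 0.05, where 0.043% of 4649 genes did (edgeR quasi-likelihood test, 4 against 4 tumours), and 0 passed by DESeq2. At an unadjusted p of 0.05, which 6.43% of the genes met, 3 members passed. Mmp2 differed by 0.84 ± 0.23 (log2 of Atf4D/D over Atf4wt/wt, SE, adjusted p = 0.506), Mmp3 by 1.00 ± 0.35 (adjusted p = 0.652) and Adamts4 by -0.66 ± 0.25 (adjusted p = 0.708). Mmp2 was the member whose CPM did not overlap between genotypes, which was so for 1.63% of all genes in that direction. The median over the 14 members was 0.28, beside -0.01 over all genes, with 11 positive and 3 negative differences.

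None of the other CAF-like differences named here passed, and those of Mmp9, Mmp19 and Timp2 were about 2 SE in size: Mmp9 1.02 ± 0.48, Mmp19 0.48 ± 0.24, Timp1 0.41 ± 0.23, Timp2 0.34 ± 0.17, Mmp14 -0.23 ± 0.24, Timp3 -0.12 ± 0.34 and Adamts2 0.23 ± 0.17 (adjusted p from 0.764 to 1). Within subcluster 0, Mmp2 was at 346, 348, 202 and 258 CPM in Atf4wt/wt and 372, 742 and 362 in the 3 Atf4D/D tumours with 10 cells or more, and these did not overlap by a narrow margin (348 and 362). How many of all genes did so within subcluster 0 was not counted. Within subcluster 1 the values were 431, 192 and 100.5 in 3 Atf4wt/wt tumours and 297, 339.9 and 354 in 3 Atf4D/D tumours, and they overlapped. They also overlapped in subcluster 2, where Mmp2 was highest, at 941 and 384 in 2 Atf4wt/wt and 834, 1206 and 773 in 3 Atf4D/D tumours. On every gene with 1 count or more, with no filter on low levels, 96 of 15446 genes (0.622%) and 4 of 36 members were called: Mmp2 (log2 0.82, adjusted p = 0.0277), Mmp3 (log2 0.99, adjusted p = 0.00197), Mmp9 (log2 1.03, adjusted p = 0.00615) and Mmp13 (log2 -3.89, adjusted p = 2.49e-15). Mmp13 is the gene whose CAF-like UMIs came from 3 cells, with 72 UMIs in Atf4wt/wt replicate 1 and 10 in Atf4D/D replicate 4. So small a p-value from so few cells shows that this fit overstates the certainty that the tumours can give. The differences of Mmp2, Mmp3 and Mmp9 hardly moved from the filtered fit (0.84, 1.00 and 1.02). There the edgeR quasi-likelihood test gave adjusted p = 0.506, 0.652 and 0.764. The 4 calls are therefore not read as genotype differences.

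In melanoma-like cells, which were wild type in both groups, 0 of 16 members passed, where 0.0319% of 12555 genes did, and 0 passed by DESeq2. At an unadjusted p of 0.05, which 11.3% of the genes met, 1 member passed. That member was Adamts1, with a difference of 0.30 ± 0.08 (unadjusted p = 0.00368, adjusted p = 0.258, edgeR quasi-likelihood test) and higher levels in all 4 Atf4D/D tumours than in all 4 Atf4wt/wt tumours. Adamts4 also did not overlap (0.15 ± 0.08, adjusted p = 0.518), and so did 5.38% of all genes in that direction. Cluster 0, where Adamts1 was highest, made up 4.42 to 22.9% of melanoma-like cells in Atf4wt/wt and 11.5 to 23% in Atf4D/D tumours, and within it Adamts1 overlapped (114, 122, 153 and 141 CPM and 140.1, 128, 144 and 144). Within cluster 3, led by genes of mitosis, the values were 53.2, 65.7, 47.8 and 64.9 in Atf4wt/wt and 77.7, 70.3, 66.5 and 87.8 in Atf4D/D tumours, which did not overlap by a narrow margin (65.7 and 66.5). The other melanoma-like clusters are not compared here, and how many of all genes do not overlap within a cluster was not counted. The part of the cluster 0 shares in the difference was not tested. The median over the 16 members was 0.00, equal to that of all genes at this precision.

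In TAM-like cells, 3 members were abundant enough to test, and 0 passed. No gene of 2153 did so (0%), with 323 (15%) at an unadjusted p of 0.05 and 0 by DESeq2. Timp2 differed by 0.41 ± 0.23, Mmp12 by 0.39 ± 0.56 and Mmp14 by -0.24 ± 0.49 (adjusted p = 0.40, 0.808 and 0.868). The genotype difference in CAF-like cells was also tested against that in melanoma-like cells: 0 of 24 members passed, where 0.298% of 12755 genes did, 0 passed by DESeq2, and 6 had an unadjusted p under 0.05, as did 5.8% of all genes. The 6 were Mmp2 (0.67 ± 0.23), Adamts4, Timp1, Mmp3 (-2.02 ± 0.65), Adamts2 and Mmp10. The last 3 had 32, 37 and 4 UMIs in melanoma-like cells, so that their differences rest on a side with few counts. Their pooled melanoma-like shares of the CAF-like level lay within the range of the collagen traces in single tumours. Without Atf4D/D replicate 3, the tumour with 10 CAF-like cells, Timp1 passed, with a difference of 0.69 (adjusted p = 0.0168), beside 0.48 ± 0.19 with all tumours (adjusted p = 0.643). In that setting 81 genes passed in all, beside 38 with all tumours, and no member passed in any other setting. On counts simulated from these tumours, the same test called 63 of 100 genes changed 2-fold and 96 of 100 changed 4-fold in CAF-like sums. It called 85 and 98 in melanoma-like sums and 51 and 98 in TAM-like sums. Unchanged genes called in the 3 simulations were 11, 5 and 7. Both sets of 100 changed genes were planted together, which makes the adjusted threshold easier to pass than where few genes differ. These shares therefore do not give the chance of calling a single changed member in the real tumours.

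**Figure D5:**
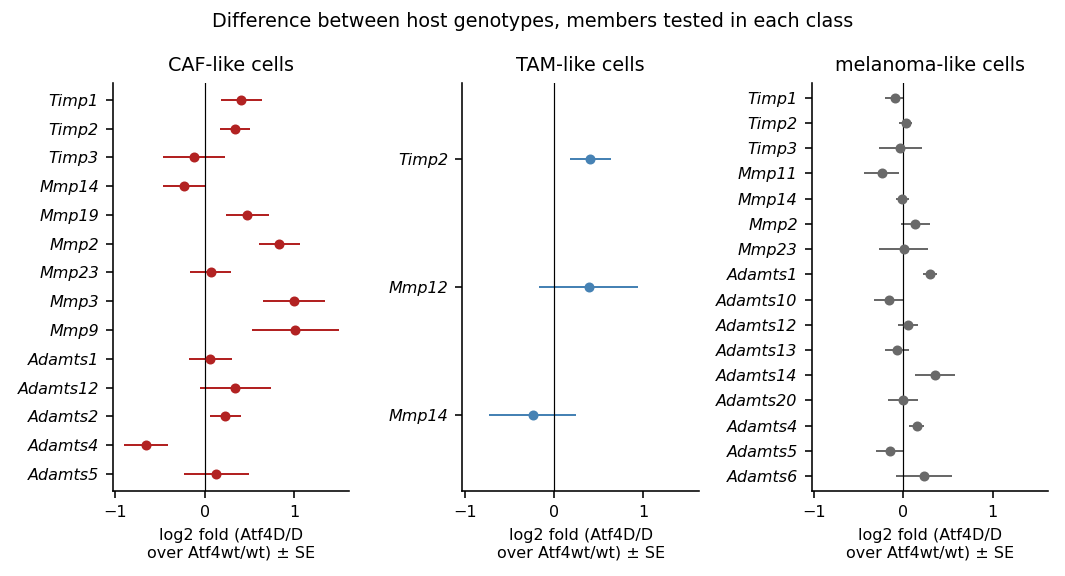
Difference between host genotypes of each member tested, as log2 of Atf4D/D over Atf4wt/wt (points) with its SE (bars), in CAF-like, TAM-like and melanoma-like cells. Mmp3 (1.00) and Mmp9 (1.02) lie farthest to the right in CAF-like cells and Adamts4 (-0.66) farthest to the left, and melanoma-like differences stay between -0.24 and 0.35.

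Other genes of the pathway were read from 3 lists: 12 activators, membrane and plasma regulators, 18 related metalloproteinases and ADAMTS-like proteins, and 15 substrates and collagen uptake genes. No listed gene passed between genotypes in any class. Of the regulators tested between CAF-like and melanoma-like cells, 6 of 9 were higher in CAF-like cells and 0 lower (median 1.49), beside 27.1% and 25.7% of all genes. Lrp1, the endocytic receptor that clears MMPs and TIMPs, differed by 5.29 ± 0.11, Furin, the convertase that activates membrane-type MMPs, by 2.02 ± 0.13 and Reck, a membrane-anchored MMP inhibitor, by 1.49 ± 0.30 (adjusted p = 2.96e-26, 7.27e-14 and 1.06e-04). Bsg, the surface protein that induces MMPs in neighbouring cells, did not pass (0.24 ± 0.11, adjusted p = 0.0614), and its CAF-like range of 686 to 1329 CPM enclosed the melanoma-like range of 791 to 1111. Without Atf4D/D replicate 3 the difference of Bsg passed (0.31, adjusted p = 0.00347).

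Of 12 related metalloproteinases tested in that comparison, 8 were higher in CAF-like cells and 0 lower (median 1.38), led by Bmp1, the procollagen C-proteinase (6.39 ± 0.13, adjusted p = 1.31e-26), with Adam12 at 1.49 ± 0.14 (adjusted p = 1.89e-10). Adam8, a protease of leukocytes, was highest in TAM-like cells, at 193 to 782 CPM, beside 0.745 to 1.28 in melanoma-like and 0 to 5.36 in CAF-like cells. Of 11 substrates and uptake genes, 10 were higher in CAF-like than in melanoma-like cells (median 8.82), with Vcan, the versican gene and a substrate of Adamts1, Adamts4 and Adamts5, at 9.01 ± 0.13 (adjusted p = 5.11e-29), Mrc2, a collagen uptake receptor, at 8.82 ± 0.20 and Thbs2, whose product binds Mmp2, at 9.50 ± 0.16 (adjusted p = 2.65e-25 and 2.47e-28). Vwf, the substrate of Adamts13, was lower in CAF-like than in melanoma-like cells by -2.65 ± 0.44 (adjusted p = 6.97e-06). Between TAM-like and melanoma-like cells the counts were 3 higher and 3 lower of 7 regulators, 6 and 2 of 11 related proteases and 3 and 1 of 8 substrates, beside 16.1% and 23% of all genes. Between CAF-like and TAM-like cells they were 2 and 1 of 5, 2 and 2 of 6, and 9 and 0 of 9, beside 27.8% and 19.7% of all genes. In both CAF-like comparisons the substrates include Col1a1 and Col3a1, CAF markers by which the class was named. The higher levels of Col1a1 and Col3a1 in CAF-like cells thus follow from the naming.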

How the data were processed

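UMI counts per gene and cell barcode of the 8 libraries were deposited by the authors as whole numbers without normalization, made with Cell Ranger 3.1.0 on GRCm38 per the submitters' processing notes. The labels name the V3 kit and an age of 12 weeks, which the methods text does not match, and which library ran on which sequencer is not given in the sources used here. Conditions and replicate numbers came from the labels; the labels call the 8 tumours biological replicates.

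Cells with 200 to 5000 genes and at most 7.5% mitochondrial UMIs were kept and clustered with Seurat 5.3.0 in R 4.3.3 (2000 variable genes, 20 components, resolution 0.6, 16 clusters), the 45 genes left out of the variable genes, 16 of which would have been among them. No doublet caller was run, so that doublets stay in the classes. Sums of UMIs over the cells of a class were made for each tumour with 10 or more such cells and tested with edgeR 4.0.16 (quasi-likelihood, TMM, filterByExpr) across all genes, Benjamini-Hochberg threshold 0.05, and DESeq2 1.42.0 was an alternative. The test was checked on simulated counts. Levels are plain CPM: TMM across classes, the scaling first planned, gave factors that followed library size (0.784 to 1.72). The members, lists and named genes (members with 100 UMIs or more by tumour; listed genes by smallest adjusted p, with Reck, Bsg, Furin, Lrp1, Adam12 and Vcan) were chosen with earlier results of these data known. Promoters came from RefSeq (GRCm38.p6).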

Additional observations from a re-analysis of the deposited data

Results flagged for a closer look

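Within the genotypes, 5 of 66 groups of 4 tumours held a value that stood far from the other 3 by Dixon's test, where chance gives about 1 in 20 groups, or 3.3 here. Of these, 3 belong to the CAF-like cells of Atf4D/D replicate 3, which numbered 10: Mmp14 at 882 CPM beside 337 to 362 in the other Atf4D/D tumours, Adamts4 at 73.5 beside 40.5 to 43.6, and Adamts1 at 49.0 beside 214 to 243. The CAF-like cells of Atf4wt/wt replicate 1 held Mmp3 at 289 CPM, apart from 104 to 130.0 in the other Atf4wt/wt tumours. In melanoma-like cells Timp1 stood apart in Atf4wt/wt replicate 4, at 32.1 CPM beside 23.7 to 24.1.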

How the results depend on the processing

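Of the differences of single genes printed above, 771 values under the alternatives kept their direction and their side of the threshold, 10 lost their call, 6 gained one and 7 changed sign, none of the 7 with a call. All 10 losses were of Mmp2 between TAM-like and melanoma-like cells, where DESeq2 gave it no adjusted p. Mmp12 between genotypes in TAM-like cells turned to -0.10 without the cells carrying melanoma markers, Timp3 in CAF-like cells ran from -0.39 to 0.24 as single tumours were left out, and between TAM-like and melanoma-like cells Mmp14 ran from -0.31 to 0.073 and Timp1 from -0.16 to 0.16. The counts of genes called between genotypes moved more. In CAF-like cells the count of 2 became 4 by DESeq2, 96 without the expression filter, 4 of them members, and 0 with sex as a covariate, without cells carrying melanoma markers and at a mitochondrial limit of 15%, and it was 0 to 2 as each tumour was left out. In melanoma-like cells 4 became 120 by DESeq2, 46 without the filter, 9 with library sizes in place of TMM (chosen after seeing the data) and 0 with sex and at the 15% limit, with 0 to 21 as each tumour was left out. In TAM-like cells 0 became 46 without the filter and 0 to 1 as each tumour was left out. The 38 genes whose genotype difference was called different between CAF-like and melanoma-like cells became 2 by DESeq2, 65 without the filter, 84 without cells carrying melanoma markers and 25 at the 15% limit, with 25 to 90 genes and 0 to 1 members as each tumour was left out. Between classes, leaving out the filter raised the members called from 20 to 31 of 41 tested (CAF-like against melanoma-like, 39.5% of all genes), from 5 to 10 of 37 (TAM-like against melanoma-like, 25.2%) and from 10 to 25 of 38 (CAF-like against TAM-like, 22.9%, where 1452 genes became 3710). Removing the filter changes how many genes are tested, and the genotype p-values in CAF-like cells then overstate the certainty, as described above. For the other moves the cause was not tested.

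With the replicate block the count was 0 in CAF-like and 0 in melanoma-like cells. Deviations of same-numbered tumours from their genotype means correlated at 0.156, -0.138, -0.0027 and 0.114 in CAF-like cells and at -0.0545, -0.356, -0.152 and -0.221 in melanoma-like cells. Tumours with different numbers were not compared in this way, so these values do not settle whether the shared numbers pair the tumours.

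Levels after TMM across classes were 0.989 to 1.26 times the plain CPM, and 11 of 33 moved by more than the spread between tumours: Adamts2 (382 CPM) and Timp2 (369) in CAF-like cells and Adamts4 (14.98), Adamts13 (4.79), Timp1 (28.3), Mmp2 (3.02), Mmp14 (98.4), Timp2 (223), Adamts12 (5.09), Adamts5 (3.39) and Adamts10 (4.63) in melanoma-like cells, with 24 genes highest in CAF-like cells in place of 23. With Mmp2 and Adamts14, both without UMIs in TAM-like cells, set to their bounds, the median of the members between TAM-like and melanoma-like cells moved from -0.99 to -0.86.

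Depth limits what the small classes can show: 732 CAF-like and 458 TAM-like cells at medians of 4585 and 2215 UMIs and 1 tumour with 10 CAF-like cells.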

Other observations

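Summed over the family, MMP genes reached 1024 to 1617 CPM in CAF-like, 343 to 1379 in TAM-like and 83.7 to 98.6 in melanoma-like cells of single tumours, and ADAMTS genes 637 to 1046, 0 to 78.2 and 101 to 134 CPM.

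Within the CAF-like class the members differed in how many cells held them. A UMI of Mmp14 was found in 76.1% of CAF-like cells, of Adamts2 in 70.6% and of Mmp2 in 63.9%, but of Adamts5 in 31.3%, Mmp3 in 30.5%, Mmp9 in 16.7% and Mmp10 in 2.73%. Melanoma-like cells, at a higher median depth, held a UMI of Mmp14 in 56.2% of cells, of Mmp2 in 2.57%, of Adamts2 in 0.148% and of Mmp9 in 0.105%. With each cell thinned to 1000 UMIs the CAF-like shares were 33.8% for Mmp14, 29.3% for Mmp2 and 7.08% for Mmp9, and the melanoma-like shares 8.21, 0.258 and 0.0109%.

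The 2808 cells left unnamed, at a median of 1361 UMIs, had pooled levels near those of melanoma-like cells for Timp1 (26.0 and 25.1 CPM), Timp2 (197 and 193) and Adamts20 (4.34 and 4.70), but a higher Timp3 (64.8 and 20.4) and Mmp12 (6.72 and 0.292).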
